A study of Mus musculus with 4 samples.

Results

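Ribosome biogenesis and nucleolar genes are the genes whose products make and mature ribosomal RNA and assemble it with ribosomal proteins. Here they were a list of 41 genes (44 symbols, older and newer names included), and 37 of the 41 had a probe under a listed symbol on the arrays, out of 27655 gene names. Each gene was read from its brightest probe, and all 37 probes were well above background in all 8 array channels, so no member was lost to a filter on dim signals. The symbols without a match were Polr1a, Polr1b, Polr1c and Polr1d. The members were set in 6 roles: RNA polymerase I transcription, nucleolar chaperones and granular proteins, snoRNP (small nucleolar ribonucleoprotein) core proteins, small subunit processome and 40S maturation, 60S assembly, and nucleolar DEAD-box helicases.

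RNA polymerase I transcribes a long ribosomal RNA precursor in the nucleolus, where snoRNPs modify it and large assemblies of proteins cut and fold it into the precursors of the 40S and 60S subunits. The work is costly to a cell, and in fibroblasts it is known to follow growth: it is high in dividing cells and low in resting ones, with the transcription factor Myc as a well-known activator of many of these genes. Growth slows when cultured fibroblasts crowd each other, and the Hippo pathway, of which the kinase Lats2 is a part, takes part in that response.

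The cells were mouse embryonic fibroblasts (MEFs) from C57BL/6J mice, with the genotype given as Lats2-/- (here labelled KO) or Lats2+/+ (labelled WT), all grown in medium with 10% inactivated fetal bovine serum. For each genotype label, RNA of a low density culture (48 h, subconfluent) and of a high density culture (3 to 5 days) was hybridised together on Agilent whole mouse genome arrays, once with the high density RNA in Cy5 and once with it in Cy3. In each channel 500 ng of total RNA was labelled, and each array was then normalized within itself (loess). A ratio is thus relative to the probes of like intensity on the array and is not an amount per cell. The 4 arrays thus hold 1 dye-swap pair per label, counted as 1 replicate, and the sources used here do not say whether the arrays of a pair shared their RNA extracts or how many embryos were used. Time in culture changed together with density, so that the contrast called density holds both.

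Between 52.8% and 67.7% of the features were well above background per channel. Both WT arrays lay on 1 slide and the KO arrays on others, scanned at other times, so that slide and genotype label cannot be told apart. The genotype label was checked on Lats2 itself: 3 of its 4 probes were brighter on the KO arrays, by up to 1.39 on the log2 scale at low density and 1.49 at high density, and the other gave -0.63 and -1.26. The 3 brighter probes lie close together, from chr14:56644080 to chr14:56645305, and are not separate readings of the gene. The other lies apart from them, at chr14:56676512-56676571. It is not known here which probes lie in the deleted part, and the probes say nothing of Lats2 protein. The paper presents a western blot as showing the knockout in its KO MEFs. KO and WT are used below as labels only. All 12 fibroblast markers were well above background in every high density channel and 10 to 12 of them in the low density channels, where Fap was below on 3 arrays and Pdgfra on 1 labelled WT. At high density, where all channels read it, Pdgfra differed most between labels among them, by 3.10 (KO minus WT, log2). Of the other lists, the probes well above background were those of 3 or 4 of 8 macrophage, 0 or 1 of 7 endothelial and 0 to 2 of 6 epithelial markers per channel. The summed signal of the macrophage markers was 1020 to 1119 on the WT arrays, and on the KO arrays it was 1789 and 2059 at low and 4578 and 5681 at high density, with Emr1, Itgam, Ptprc and Fcgr1 not well above background in any channel. That of the epithelial markers was 1524 and 1687 at low and 593 and 635 at high density on the WT arrays, and 585 and 687 at low and 373 and 406 at high density on the KO arrays, with Cdh1, Epcam, Krt8 and Cldn4 not well above background in any channel. The macrophage sum thus moved with density on the KO arrays and the epithelial sum under both labels, both differed between labels. The macrophage sum was carried by Lyz2, at 1.85 (mean log2 ratio by density) on the KO arrays and 4.75 (KO minus WT) at high density, while the median of the 4 macrophage markers tested was -0.15 and 0.09 and Cd14 gave -0.26 and -1.59. The part of these markers in the differences reported here was not tested.

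Most of the members had less RNA at high density than at low density, under both labels. The values are log2 ratios of high over low density, so that -1 is a 2-fold lower signal, and each is given for the array with high density in Cy5 first and then for the dye swap. Over the 37 members, the median of the dye-swap means was -0.84 on the WT arrays and -0.86 on the KO arrays, beside 0.06 in each case over all genes tested. In RNA of whole cultures, fewer cells that make these RNAs and less of them per cell cannot be told apart. The ratio was below 0 on all 4 arrays for 34 of the 37 members, against 26.9% of 14166 genes tested under both labels, and the exceptions were Ubtf, Ncl and Nol6.

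A gene was called where its dye-swap mean reached 2-fold and the arrays of the pair did not differ in sign. On the WT arrays 13 of 37 members were called lower and 0 higher, where the rule called 6.09% of 14869 genes lower and 9.42% higher. On the KO arrays it was 11 lower and 0 higher, where the background was 3.87% lower and 7.16% higher of 15429 genes. With the lower threshold of 1.4-fold, 29 members were lower on the WT arrays (background 17.6%) and 30 on the KO arrays (background 15.2%), and again 0 were higher (backgrounds 23.5% and 21.5%). Arrays of a pair differed by a standard deviation of 0.15 (WT) and 0.20 (KO) over the members. This is technical error if they shared RNA extracts, and otherwise also holds differences between extracts. Centring each array on its median in place of loess turned the balance of all calls, from 39.3% to 53.0% lower on the WT arrays and from 35.1% to 57.2% on the KO arrays, and set the members' medians at -0.98 and -1.17, with 23 members lower on the KO arrays in place of 11, where 1069 of 15429 genes were lower in place of 597.

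**Figure D1:**
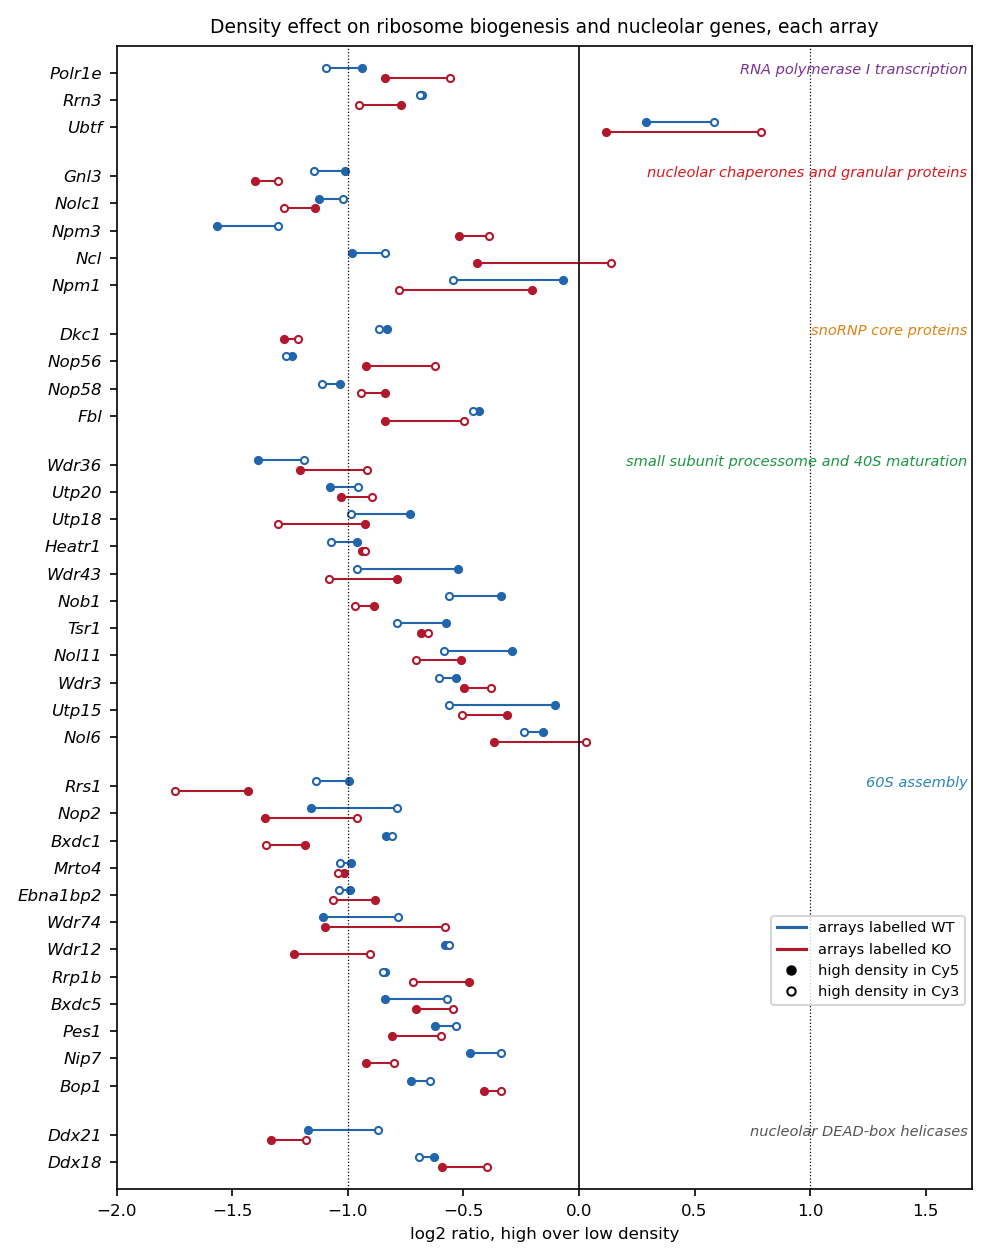
Log2 ratio of high over low density (horizontal axis) for each of the 37 members, by role; filled points are the arrays with high density in Cy5, open points the dye swaps, blue the WT and red the KO label, and dotted lines mark 2-fold. Nearly all points lie left of 0, with medians of -0.84 (WT) and -0.86 (KO), and Ubtf is the only gene with all 4 points to the right.

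The role of RNA polymerase I transcription had 3 members with a probe, and their ratios were not all of one sign. Polr1e, a subunit of the polymerase, had log2 ratios of -0.94 and -1.09 on the WT arrays and of -0.84 and -0.56 on the KO arrays. Rrn3, the factor that makes the polymerase competent to initiate, gave -0.68 and -0.69 on the WT arrays and -0.77 and -0.95 on the KO arrays. All 8 of these values were below 0. Ubtf, which shapes ribosomal DNA for the polymerase, went the other way, with 0.29 and 0.58 on the WT arrays and 0.12 and 0.79 on the KO arrays. Its second probe gave means of 0.41 (WT) and 0.36 (KO), so that the higher signal did not rest on a single probe. The 4 subunits missing above were found under the older array names Rpo1-4 (Polr1a), Rpo1-2 (Polr1b), Rpo1-1 (Polr1c) and Rpo1-3 (Polr1d), which RefSeq lists as synonyms. Of these, Polr1b had means of -1.41 (WT) and -0.98 (KO) and Polr1a of -0.61 and -0.53, while Polr1c was near 0 with 0.04 and -0.13 and Polr1d had -0.12 and -0.50.

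The 5 nucleolar chaperones and granular proteins held members that passed 2-fold under both labels and members that differed between them. Gnl3 (nucleostemin), a nucleolar GTPase abundant in proliferating and stem cells, gave -1.01 and -1.15 on the WT arrays and -1.40 and -1.30 on the KO arrays, a 2.11-fold and 2.55-fold lower signal. Nolc1, a chaperone of snoRNPs, gave -1.13 and -1.02 on the WT arrays and -1.14 and -1.27 on the KO arrays. Both passed the 2-fold rule under both labels. Npm3, a histone chaperone of the nucleoplasmin family, had the lowest ratio of all members on the WT arrays, -1.56 and -1.30, but only -0.52 and -0.39 on the KO arrays. Ncl (nucleolin), which binds nascent ribosomal RNA, likewise had -0.98 and -0.84 on the WT arrays and -0.44 and 0.14 on the KO arrays, where the dyes disagreed in sign. Npm1 (nucleophosmin), an abundant chaperone of the granular zone, differed more between dyes than between labels, with -0.07 and -0.54 on the WT arrays and -0.20 and -0.78 on the KO arrays.

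Among the snoRNP core proteins, Nop56 and Nop58, the paired scaffold proteins of box C/D snoRNPs, were past the 2-fold rule on the WT arrays. Nop56 had -1.24 and -1.27 there and -0.92 and -0.62 on the KO arrays, and Nop58 had -1.04 and -1.11 there and -0.84 and -0.94. Dkc1 (dyskerin), the pseudouridine synthase of box H/ACA snoRNPs, showed the reverse order, with -0.83 and -0.86 on the WT arrays and -1.28 and -1.22 on the KO arrays. Fbl (fibrillarin), the methyltransferase of box C/D snoRNPs, had the smallest ratios of the group, -0.43 and -0.46 on the WT arrays and -0.84 and -0.50 on the KO arrays.

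The small subunit processome is the large assembly that folds and cuts the precursor of the small subunit, and it was grouped with factors of later 40S maturation such as Nob1 and Tsr1. All 11 genes of this role were below 0 on both WT arrays, 10 of them on both KO arrays. Wdr36, a WD-repeat scaffold, gave -1.39 and -1.19 on the WT arrays and -1.21 and -0.91 on the KO arrays and was the only one past 2-fold under both labels. Heatr1 had -0.96 and -1.07 on the WT arrays and -0.94 and -0.93 on the KO arrays. Utp20 had -1.08 and -0.96 on the WT arrays and -1.03 and -0.89 on the KO arrays. For these 3 genes the means under the labels differed by 0.06 to 0.23. Utp18 was past the rule on the KO arrays alone, with -0.93 and -1.30 against -0.73 and -0.99. Nob1, the endonuclease that makes the mature end of the small ribosomal RNA, gave -0.88 and -0.97 on the KO arrays against -0.34 and -0.56. Nol6 was nearest to 0, with -0.16 and -0.24 on the WT arrays and -0.37 and 0.03 on the KO arrays. The other 5 (Wdr3, Wdr43, Utp15, Nol11 and Tsr1) had means from -0.74 to -0.33 on the WT arrays and from -0.93 to -0.41 on the KO arrays.

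Of the 12 genes of 60S assembly, all were below 0 on all 4 arrays and 11 were past 1.4-fold under each label. Rrs1, which with Bxdc1 (now Rpf2) brings the small 5S ribonucleoprotein to the growing subunit, had the lowest ratio of all members on the KO arrays. It gave -0.99 and -1.14 on the WT arrays and -1.43 and -1.75 on the KO arrays, a 2.09-fold and 3.01-fold lower signal. Bxdc1 gave -0.83 and -0.81 on the WT arrays and -1.19 and -1.36 on the KO arrays. Both partners were thus lower on the KO than on the WT arrays in each dye orientation. Mrto4, a placeholder for a stalk protein, hardly differed between labels, with -0.98 and -1.03 on the WT arrays and -1.02 and -1.04 on the KO arrays. Ebna1bp2 was alike too, with -0.99 and -1.04 on the WT arrays and -0.88 and -1.06 on the KO arrays. Nop2 (Nol1 on the array), a ribosomal RNA methyltransferase long known as a proliferation antigen, had -1.16 and -0.79 on the WT arrays and -1.36 and -0.96 on the KO arrays.

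Bop1, Pes1 and Wdr12 form one complex (PeBoW), yet their ratios were ordered differently under the labels. Wdr12 had -0.58 and -0.56 on the WT arrays and -1.23 and -0.90 on the KO arrays. Bop1 had -0.73 and -0.64 on the WT arrays and -0.41 and -0.34 on the KO arrays. Pes1 lay between them on the KO arrays, with -0.81 and -0.60, after -0.62 and -0.53 on the WT arrays. A second bright Pes1 probe gave means of 0.39 (WT) and 0.63 (KO), so the direction for Pes1 depends on the probe. The other 4 genes of the role (Bxdc5, Nip7, Wdr74 and Rrp1b) had means from -0.95 to -0.40 on the WT arrays and from -0.86 to -0.60 on the KO arrays.

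The last role holds a pair of RNA helicases. Ddx21, which acts in both transcription and processing of ribosomal RNA, gave -1.17 and -0.87 on the WT arrays and -1.33 and -1.18 on the KO arrays, and its other 2 probes gave means between -1.82 and -1.09. Ddx18 gave -0.63 and -0.69 on the WT arrays and -0.59 and -0.40 on the KO arrays.

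Of the members past 2-fold, 6 were so under both labels: Ddx21, Gnl3, Mrto4, Nolc1, Rrs1 and Wdr36. Of 14166 genes 1.78% were lower under both labels by that rule. At 1.4-fold it was 25 members under both labels, where 8.94% of all genes were, and Nol6, Ubtf and Utp15 under neither. Other probes of the same genes bear on this, since 21 members had more than 1 probe: of 29 further probes, 26 were below 0 on the WT arrays and 25 on the KO arrays, with medians of -0.63 and -0.43. Besides the second probes of Ubtf and Pes1, dim second probes of Ebna1bp2 (0.15) and Rrn3 (0.22) had KO means above 0. Of the 6 members past 2-fold under both labels, Gnl3, Mrto4 and Rrs1 had 1 probe each. The second probe of Nolc1 fell short of 2-fold, with means of -0.57 (WT) and -0.63 (KO). That of Wdr36 passed on the WT arrays alone (-1.43 and -0.75). The further probes of Ddx21 passed under both labels.

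A density effect common to both labels was tested with limma on the 2 dye-swap means, whose spread also holds any real difference between the labels. No member passed, with Benjamini-Hochberg adjusted p from 0.0743 to 0.527 in the limma fit, and neither did any of the 14166 genes (0%). At an unadjusted p under 0.05, 32 members were lower and 0 higher, where 12.1% of all genes were lower. The lowest p values belonged to Gnl3 (mean -1.22, standard error 0.19, limma adjusted p = 0.0743), Nolc1 (-1.14, standard error 0.18) and Wdr36 (-1.17, standard error 0.18), and the members above 0.05 were Ubtf, Ncl, Nol6, Npm1 and Utp15.

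The density effects under the labels were then set against each other, gene by gene, as the KO minus the WT log2 ratio. The median difference over the members was -0.02, beside 0.02 over all genes, and 0 members passed 2-fold in either direction, where the background was 4.98% lower and 4.55% higher. At 1.4-fold, 2 members were lower (Rrs1 and Wdr12) and 2 higher (Npm3 and Ncl), where the background was 15.9% and 15.5%. The share of the members that differed between labels was thus below the background.

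Npm3 had the largest difference, 1.05 and 0.91 in the 2 dye orientations, followed by Ncl with 0.54 and 0.98 and Nop56 with 0.32 and 0.64. At the other end Rrs1 gave -0.44 and -0.61, Wdr12 -0.66 and -0.34 and Nob1 -0.55 and -0.41. The means of the remaining members lay between -0.46 (Nip7) and 0.32 (Polr1e). Of 4 Ncl probes, the 2 brightest showed this difference and the dimmest the reverse, with means of -0.08 (WT) and -0.54 (KO). Across the 37 members the WT and KO means had a Pearson correlation of 0.62 (Spearman 0.55), and across all 14166 genes of 0.63 (0.64). This is a description over genes, which are not independent of one another, and the labels share no array.

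**Figure D2:**
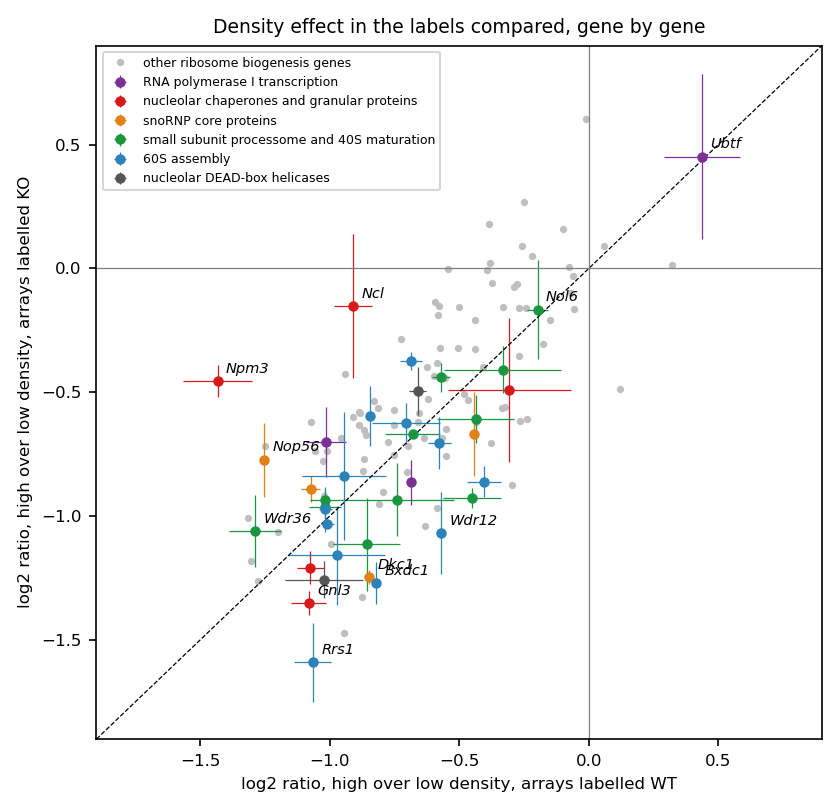
Mean log2 ratio of high over low density on the WT arrays (horizontal) and the KO arrays (vertical); coloured points are the members by role, bars reach the value of each array of the pair, grey points are other ribosome biogenesis genes, and the dashed line marks equal effects. All members but Ubtf, in the upper right, lie in the lower left, with Npm3 and Ncl above the dashed line and Rrs1 and Wdr12 below it.

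In a separate comparison, KO and WT arrays were set against each other at the same density and in the same dye, given in the same order of arrays. At low density the members had less signal on the KO arrays: 35 of 37 were below 0 in both dyes, where 44.1% of all genes were. The members' median log2 difference (KO minus WT) was -0.40, beside 0.03 over all genes. At 2-fold, 6 were lower and 0 higher, where 8.36% of 15254 genes were lower and 7.33% higher. At 1.4-fold it was 17 lower and 0 higher, where the background was 21.9% and 20.7%. Arrays had been brought to a common scale for this contrast, and the calls rest on that step, while the distance of the members' median from that of all genes does not: it was -0.43 with and -0.42 without it at low density, and -0.54 and -0.51 at high density. Without it the median of all genes moved up by 0.24 at both densities. The members' median at low density was then -0.15, and 25 of the 37 members were below 0. Of the members only Polr1e passed 2-fold, where 800 of 15254 genes were lower. The share of lower calls among all calls was 30.9% in place of 53.3%.

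At high density 34 of 37 members were below 0 in both dyes, where 41.7% of all genes were, with a median of -0.51 beside 0.03 over all genes. There, 5 were lower and 0 higher at 2-fold (background 7.79% and 6.75% of 15612 genes), and 19 were lower and 1 higher at 1.4-fold (background 20.2% and 19.3%). Without the common scale 0 members passed 2-fold, where 849 of 15612 genes were lower. The members' median was then -0.24, 31 were below 0 and 33.4% of all calls were lower, in place of 53.6%. Without replicate 1 of each label only Polr1e passed, a smaller share than the 1167 of 15612 genes that were lower. Taking both densities, 32 members were below 0 in both dyes each time, against 30.8% of 14734 genes. The contrasts at the 2 densities come from the same 4 arrays as the density effects, so they are not independent of them.

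Polr1e had the lowest difference of all members, with -1.39 and -1.54 at low density and -1.29 and -1.01 at high density, a 2.76-fold and 2.22-fold difference. The catalytic polymerase subunits under their older names stood with it, Polr1a at -1.23 and -1.15 and Polr1b at -1.01 and -0.58 for low and high density. Polr1d had 0.49 and 0.11. Polr1c had -0.18 and -0.35. Nol6, which hardly differed with density, gave -1.17 and -1.11 at low density and -1.38 and -0.84 at high density. Wdr3 gave -1.18 and -1.11 at low density and -1.15 and -0.89 at high density. These were the 3 members past 2-fold at both densities.

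Bop1 (-1.17 and -1.28), Ddx18 (-1.08 and -1.07) and Ebna1bp2 (-1.08 and -0.97) passed 2-fold at low density only, though at high density they still gave -0.85 and -0.97, -1.05 and -0.78, and -0.97 and -0.99. Fbl and Dkc1 passed at high density only. Fbl gave -1.26 and -0.93 there after -0.85 and -0.89 at low density, and Dkc1 gave -1.16 and -0.93 after -0.72 and -0.58. All 4 snoRNP core proteins were past 1.4-fold at low density, and Nop56, at -0.75 and -0.74, and Nop58, at -0.50 and -0.49, came closer to 0 at high density with -0.43 and -0.10 and with -0.31 and -0.32.

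At low density 3 members had differences close to 0. Bxdc1 gave -0.10 and 0.12, Rrs1 -0.02 and -0.04, and Utp18 0.00 and -0.05, the 3 highest values of the list. At high density these gave means of -0.44, -0.56 and -0.28. Npm3 was the only member higher on the KO arrays at high density, with 0.76 and 0.62, after -0.29 and -0.29 at low density. Utp20 (-0.10 and 0.02) and Ncl (-0.30 and 0.07) followed. Ubtf, the exception by density, was lower on the KO arrays in both dyes, with -0.46 and -0.66 at low and -0.64 and -0.46 at high density.

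Probes disagreed more here than by density. Of 29 further probes 23 were below 0 at low and 22 at high density. Ddx21 is one example, since its brightest probe gave -0.11 and -0.35 at the 2 densities and its others -0.84 and -1.05, and 0.88 and 0.45. The second Pes1 probe gave 0.59 and 0.84 where the brightest gave -0.23 and -0.36. Both genes are counted above by their brightest probe alone, and their probes do not share a direction between labels. Among members past 2-fold, the dim second probe of Ebna1bp2 gave -0.32 at low and 0.12 at high density, and that of Nol6 -0.53 and -0.47. The second probes of Tsr1 (-1.27 and -1.07) and Wdr36 (-1.34 and -0.66) were lower than their brightest.

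By role, the mean differences between labels ranged as follows. The 3 genes of RNA polymerase I transcription lay between -1.46 and -0.31 at low and between -1.15 and -0.48 at high density, with Rrn3 the highest each time. The 5 nucleolar chaperones and granular proteins had a median of -0.18 at low density, from -0.88 (Ncl) to -0.11 (Npm1), and of -0.29 at high density, from -0.43 (Gnl3) to 0.69 (Npm3). The 11 genes of the small subunit processome and 40S maturation had medians of -0.40 and -0.51. Among those not given above, Wdr36 had means of -0.83 and -0.60, Tsr1 of -0.73 and -0.72 and Nol11 of -0.13 and -0.30. The 12 genes of 60S assembly had medians of -0.37 and -0.68, and among them Mrto4 had means of -0.88 and -0.90 and Nop2 of -0.72 and -0.90, past 1.4-fold but not 2-fold at both densities.

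**Figure D3:**
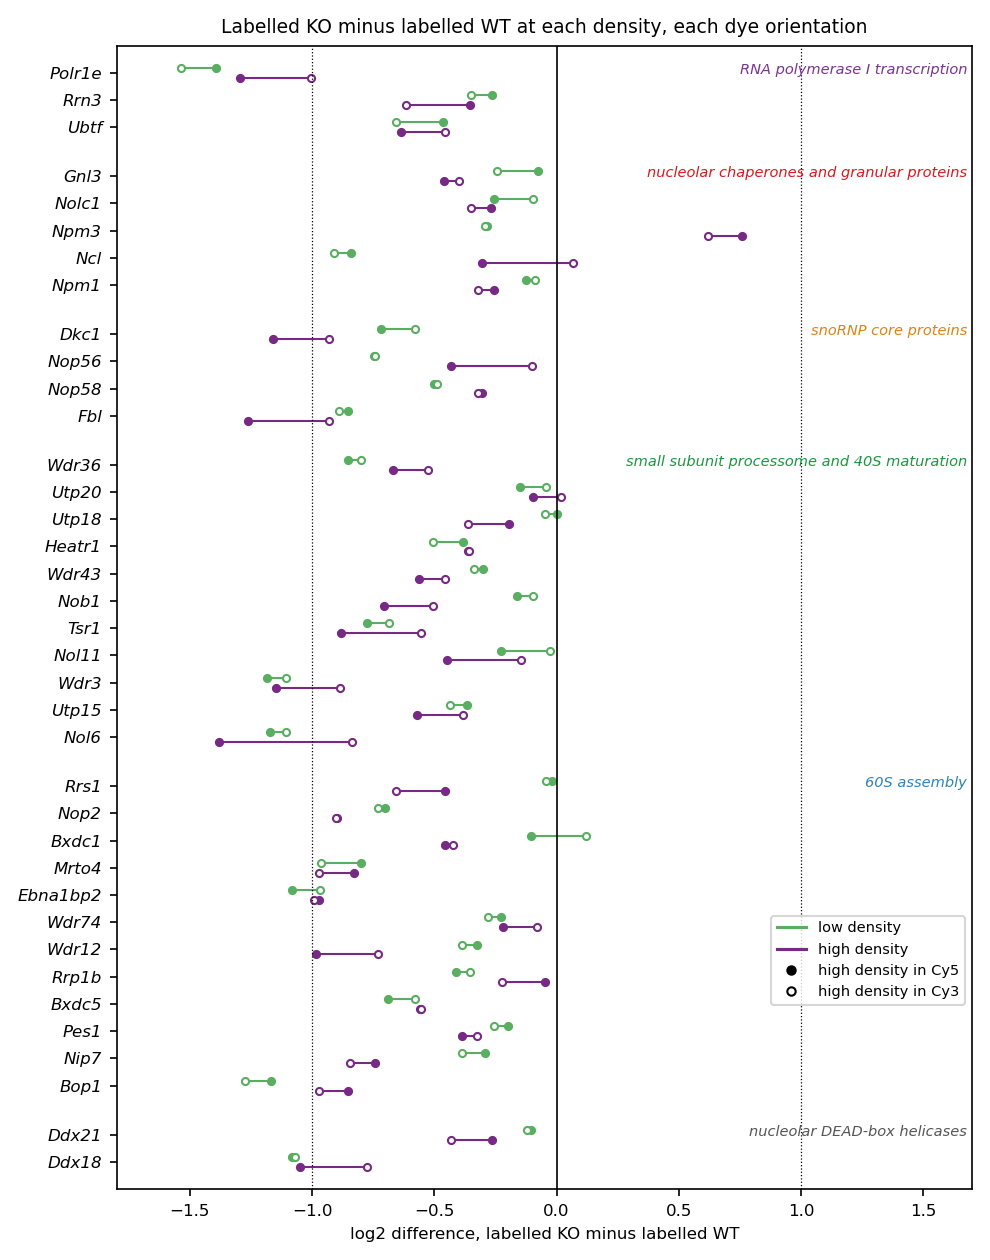
Log2 difference of KO minus WT arrays (horizontal axis) for each of the 37 members at low (green) and high density (purple), by role; filled points are the arrays with high density in Cy5, open points the dye swaps, and dotted lines mark 2-fold. Most points lie left of 0, with medians of -0.40 at low and -0.51 at high density, Polr1e farthest left and Npm3 at high density the farthest right.

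Further genes of the pathway came from a wider list of 102 genes that does not hold the members, of which 91 had a probe. By density their median was -0.58 on the WT arrays and -0.56 on the KO arrays. On the WT arrays 10 of 91 were lower and 0 higher at 2-fold, and on the KO arrays 8 of 90 lower and 0 higher, against the backgrounds above. At 1.4-fold 54 and 51 were lower. Bysl, needed for 40S maturation, gave -1.30 and -1.31 on the WT arrays and -1.24 and -1.12 on the KO arrays. Exosc6, a subunit of the RNA exosome that trims ribosomal RNA precursors, gave -1.41 and -1.15, and -1.43 and -1.10. Mphosph10, a processome protein, gave -1.09 and -1.30, and -1.02 and -1.10. Lyar, a nucleolar zinc finger protein, gave -1.20 and -1.43, and -0.87 and -1.15. These 4 were past 2-fold under both labels. The 12 polymerase I genes of this wider list, which include subunits shared with other polymerases and factors associated with the TATA-binding protein, had medians of only -0.23 and -0.12, and Taf1a was the highest on the KO arrays at 0.60 and 0.60.

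At low density 11 of the 91 were lower and 2 higher on the KO arrays at 2-fold, and at high density 6 lower and 3 higher, with medians of -0.40 and -0.31. Over all genes the rule called 8.36% lower and 7.33% higher at low density and 7.79% and 6.75% at high density, so that the 6 lower genes at high density are below the background share. Brix1 (Bxdc2 on the array), a 60S factor, gave -1.24 and -1.26 at low and -1.08 and -1.05 at high density. Utp6, of the processome, gave -1.14 and -1.14, and -1.30 and -1.17. Utp14a, also of the processome, was among the genes higher on the KO arrays, with 1.20 and 1.23 at low and 1.07 and 0.93 at high density.

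The ribosomal proteins themselves had other density effects. The 77 cytosolic ribosomal protein genes had a median of 0.39 by density on the WT arrays, where 68 were above 0 on both arrays and 1 below, from Rpl14 at -0.20 to Rps27 at 0.85. That median was 0.53 with high density in Cy5 and 0.21 in the dye swap. On the KO arrays their median was -0.14, with 13 above 0 and 35 below on both arrays, from Rpl14 at -0.80 to Rps20 at 0.44. The other 29 differed in sign between the arrays. The KO median was 0.05 with high density in Cy5 and -0.35 in the dye swap, so its sign depended on the array. None of the 77 genes passed 2-fold under either label. The KO minus WT difference of the density effects was below 0 on both dye orientations for 73 of 77 of them. It was so for 18 of the 37 members and 40.7% of all genes. Between labels their median was 0.18 at low density, with 13 below 0 in both dyes, and -0.37 at high density, with 65 below 0 in both dyes and 0 past 2-fold, where the medians of the members were -0.40 and -0.51. Ribosomal protein genes have many near-identical pseudogenes, so that single probes may read more than one transcript.

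The DNA replication genes, which mark cells in S phase, were lower by density in every case on the WT arrays, where 19 of 19 passed 2-fold with a median of -1.46. On the KO arrays 5 of 19 passed with a median of -0.63, and the median difference of the density effects was 0.74, where that of the members was -0.02. Between labels their medians were below 0, as those of the members were. At low density 14 of 19 were lower and 1 higher at 2-fold (background 8.36% and 7.33%), with a median of -1.18. At high density 2 of 19 were lower and 1 higher (background 7.79% and 6.75%), with a median of -0.50 and 16 below 0 in both dyes. Their part in the members' differences was not tested.

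Myc itself was lower at high density, with -1.05 and -1.16 on the WT arrays and -1.69 and -1.63 on the KO arrays, and lower on the KO arrays, with -0.58 and -0.36 at low and -1.23 and -0.84 at high density. The repressing partners of Max given here were all higher at high density on the KO arrays, and on the WT arrays all but Mxd3 were. Mxd4 and Mxd1 were higher at high density. Mxd4 gave 1.87 and 2.08 on the WT arrays and 0.75 and 0.75 on the KO arrays, and Mxd1 gave 1.66 and 1.56, and 0.99 and 1.12. Mxi1 gave 0.79 and 0.69 on the WT arrays and 1.23 and 1.23 on the KO arrays. Mxd3 was lower on the WT arrays, at -1.22 and -1.19, and had 0.73 and 0.78 on the KO arrays. Mycn, a relative of Myc, was lower on the WT arrays alone, at -2.14 and -2.53, and had 0.22 and 0.07 on the KO arrays. Mycl1, another relative, was not well above background at high density on either WT array, so its ratio there is not given, and had -0.92 and -0.75 on the KO arrays.

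**Figure D4:**
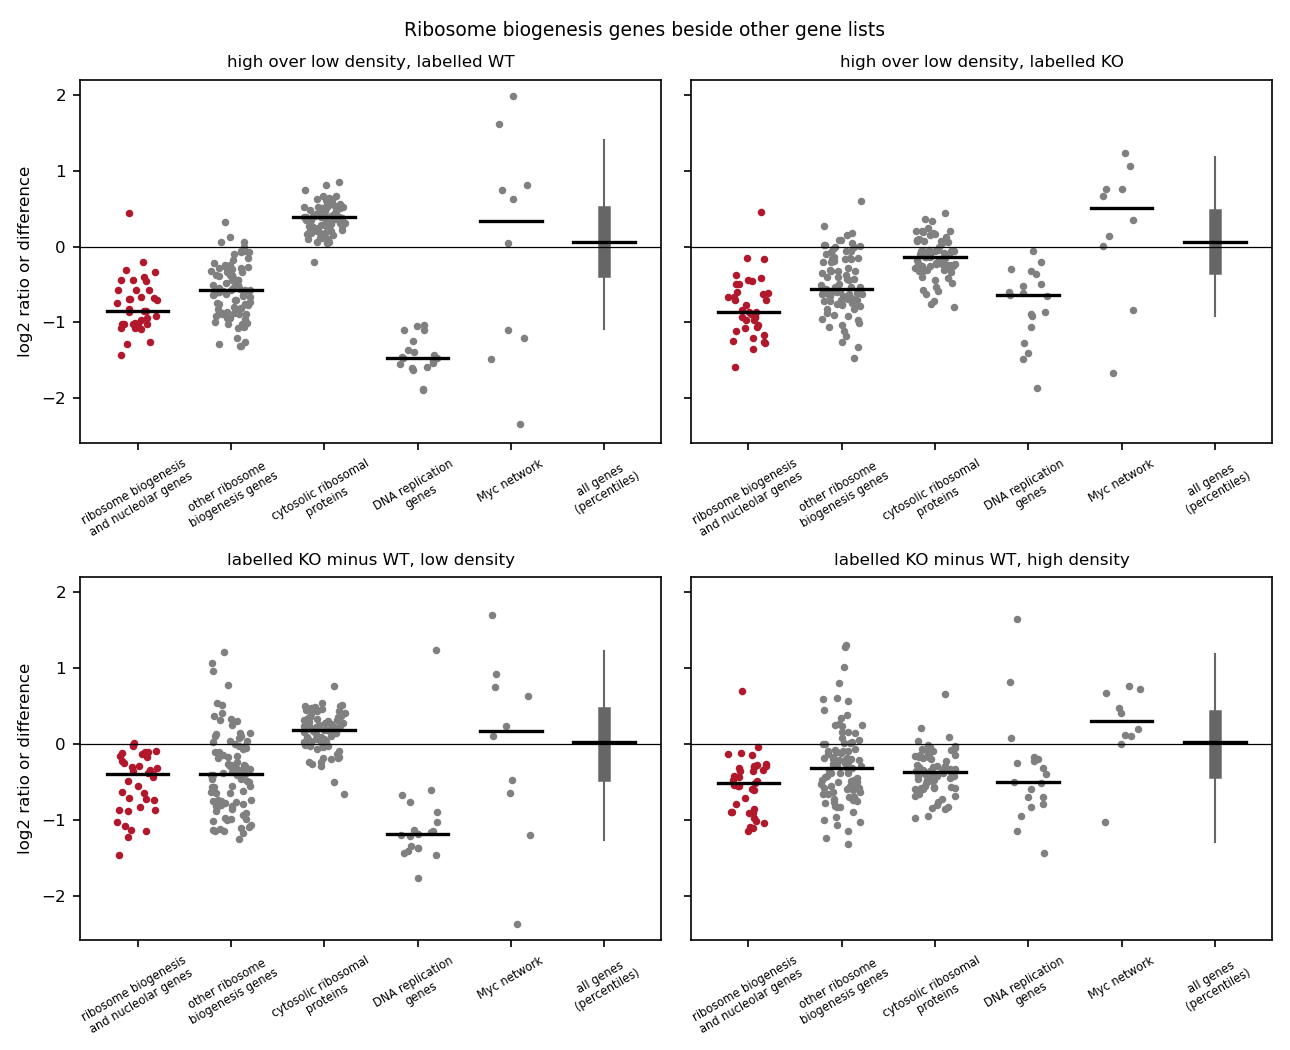
Dye-swap mean of each gene (points) in 5 gene lists for the density effect under each label (top) and for KO minus WT at each density (bottom), as log2 ratios or differences; black lines are list medians, and the last column gives the 5th to 95th (thin) and 25th to 75th percentiles (thick) of all genes. The medians of the members (red) lie below 0 in all panels, with Ubtf (by density), Npm3 (high density) and Bxdc1 (low density) as the points above 0. The ribosomal protein genes have a median of 0.39 on the WT arrays (0.53 and 0.21 by array) and of -0.14 on the KO arrays (0.05 and -0.35 by array).

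Since many members were lower together by density, their RefSeq promoter windows (GRCm38.p6, 250 bases before to 50 after the gene start) were searched for the E-box CACGTG, the sequence that Myc and Max bind. The motif is its own reverse complement, so both strands are read at once. Windows were found for 30 of the 37 members, and 9 of these 30 genes (30%) held it, beside 8.09% of all 27025 genes with windows (25.6% of 39 against 7.15% of 32851 windows). The 9 were Bxdc1, Nol11, Nop2, Pes1, Rrn3, Tsr1, Utp18, Utp20 and Wdr43. Members with the motif had median log2 ratios by density of -0.74 (WT) and -0.93 (KO), and the 21 without it of -0.95 and -0.86. The order of these medians was thus opposite under the labels, and no test was made. A match is a description of the sequence and not of binding.

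The windows of the 4 genes with the motif that passed 2-fold by density under a label are shown with the motif in capitals. They lie at chr10:40246990-40247289 on the minus strand for Bxdc1 (Rpf2), chr6:125131633-125131932 on the plus strand for Nop2, chr11:93885717-93886016 on the minus strand for Utp18 and chr10:88826765-88827064 on the minus strand for Utp20. The motif starts 60 bases before the gene start in Nop2 and 20 before it in Utp18, and 34 bases after it in Bxdc1 and 37 after it in Utp20.
Bxdc1: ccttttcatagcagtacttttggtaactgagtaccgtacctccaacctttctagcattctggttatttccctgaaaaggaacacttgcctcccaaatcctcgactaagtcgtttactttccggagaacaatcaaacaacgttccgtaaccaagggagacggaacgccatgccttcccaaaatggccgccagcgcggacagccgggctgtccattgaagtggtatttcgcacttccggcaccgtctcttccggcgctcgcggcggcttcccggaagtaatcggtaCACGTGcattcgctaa
Nop2: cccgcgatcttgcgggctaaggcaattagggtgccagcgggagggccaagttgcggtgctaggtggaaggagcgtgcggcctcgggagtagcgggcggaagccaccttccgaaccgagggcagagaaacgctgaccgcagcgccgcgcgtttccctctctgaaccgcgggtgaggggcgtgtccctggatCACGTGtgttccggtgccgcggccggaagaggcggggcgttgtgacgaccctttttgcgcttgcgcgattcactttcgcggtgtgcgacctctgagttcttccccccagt
Utp18: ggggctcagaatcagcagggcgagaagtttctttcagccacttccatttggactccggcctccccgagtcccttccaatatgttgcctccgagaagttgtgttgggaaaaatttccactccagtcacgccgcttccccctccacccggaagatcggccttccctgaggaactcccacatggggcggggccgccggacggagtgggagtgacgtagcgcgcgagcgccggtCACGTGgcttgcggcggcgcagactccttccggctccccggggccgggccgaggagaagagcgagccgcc
Utp20: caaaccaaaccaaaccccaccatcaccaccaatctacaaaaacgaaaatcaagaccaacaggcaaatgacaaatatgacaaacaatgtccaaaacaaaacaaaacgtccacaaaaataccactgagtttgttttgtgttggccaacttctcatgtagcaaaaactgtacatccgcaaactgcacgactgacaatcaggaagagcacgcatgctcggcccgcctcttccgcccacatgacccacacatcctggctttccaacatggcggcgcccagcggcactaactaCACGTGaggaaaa

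The array probes of the leading members lie, in the array annotation (mm8), at chr14:29842700-29842759 on the minus strand for Gnl3, chr1:9532346-9532405 on the plus strand for Rrs1, chr19:45801170-45801229 on the minus strand for Npm3, chr4:45052471-45052530 on the plus strand for Polr1e and chr11:102122279-102122337 on the minus strand for Ubtf. Whether these lie in exon ends was not checked, as no annotation of that build was used. Of the genes named above for disagreeing probes, the brightest Pes1 probe lies at chr11:3878919-3878978 and the second at chr11:3879895-3879954, both on the plus strand.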

How the data were processed

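RNA from MEFs at low and high density was measured on 4 two-colour Agilent arrays, 1 dye-swap pair per genotype label. Per the file headers, the authors extracted the scans with Agilent Feature Extraction (10.5.1.1 in the submitters' processing notes), and the deposited files hold raw mean and background intensity for Cy3 and Cy5, processed intensity, quality flags coded 0 or 1 and a log10 ratio; the deposited series matrix holds that log10 ratio turned to high over low density.

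With R 4.3.3 and limma 3.58.1, raw intensity was background-corrected (normexp, offset 50), loess-normalized within arrays without control spots, and for differences between labels scaled by Aquantile. Log2 ratios of a dye-swap pair were averaged. The offset shrinks the ratios of dim probes. A gene was tested by density where both arrays of a label read its probe well above background at 1 density or more, and between labels where both dyes of 1 label or more did. A gene was its brightest probe. Calls needed 2-fold (or 1.4-fold) and the same sign on both arrays. With 1 replicate per label no test was possible within a label. The limma fit (lmFit, eBayes, intercept) used the WT and KO dye-swap means with Benjamini-Hochberg adjustment over 14166 genes, and was tested on simulated data. Summaries used Python 3.11.15. No spike-in scaling was made.

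The members and all gene lists were chosen with earlier results of these data known. Members past 2-fold in a contrast, and the 3 highest and 3 lowest of each, were given by array, and the rest by the range or median of their role, with some by mean. Genes of other lists were named only past 2-fold or at the ends of their list, beside Lats2 and Myc. The spread over a dye swap is technical where both arrays used the same extracts, which the sources used here do not say, and the number of arrays limits the precision.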

Additional observations from a re-analysis of the deposited data

Results flagged for a closer look

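For 2 genes of the Myc network both arrays of a label lay on opposite sides of 0 from both arrays of the other label. The KO minus WT difference of the density effects was 2.48 for Mycn, whose log2 ratios by density were -2.14 and -2.53 on the WT arrays and 0.22 and 0.07 on the KO arrays. It was 1.96 for Mxd3, a repressing partner of Max, which gave -1.22 and -1.19 on the WT arrays and 0.73 and 0.78 on the KO arrays. The differences were not tested, since each label has 1 replicate. No member of the ribosome biogenesis list showed such opposite directions.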

How the results depend on the processing

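Processed signals, offset 0 and the filters on dim probes by density and between labels, and the series matrix by density, where alone it gives values, kept the medians and member counts at 2-fold within the spread between arrays (medians) or within 1.5 times (counts). Exceptions came from other choices. Median centring gave a median of -1.17 and 23 members lower on the KO arrays, in place of -0.86 and 11. Without scaling between arrays the low density median was -0.15 with 1 member past 2-fold, where 800 of 15254 genes were lower. At high density it was -0.24 with 0 members, where 849 of 15612 genes were lower. The mean over all probes left 3 of 37 members lower at high density, near the share of all genes (1089 of 15632). At 1.4-fold the counts were 29 (WT) and 30 (KO) lower by density, 2 lower and 2 higher for the difference of the density effects, 17 lower at low density, and 19 lower and 1 higher at high density. With 1 array or dye in place of 2, the number of members lower by density was 10 to 11 (WT) and 10 to 12 (KO), higher for the difference 0 to 1, and lower on the KO arrays at high density 1 to 6, where leaving out replicate 1 gave the 1. In the limma fit 0 members passed under every alternative, while the genes passing over the whole array were 95 with median centring, 186 with all 8 channels above background, 80 with offset 0 and 104 with the series matrix. The methods' t-test at their threshold (unadjusted, with 2-fold) called 2 of 37 members, beside 332 of 14166 genes, and 0 of either after Benjamini-Hochberg. Of 667 alternative values of single genes 549 moved by less than the spread between arrays and 118 by more, and no called value changed sign. The cause of these shifts was not tested. No paired analysis was possible because the labels give no replicate numbers: replicates 1 and 2 are the dye orientations of 1 pair per label, within which labels were already compared.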
